A study of Mus musculus with 3 samples.

Results

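The genes described here are 10 transcription factors and transcriptional co-regulators of multiciliated cells: Foxj1, Rfx1, Rfx2, Rfx3, Rfx4, Myb, Trp73, E2f4, Mcidas and Gmnc. They were chosen by symbol, and all 10 were found among the 27998 genes of each count matrix. Their unique molecular identifiers (UMIs, 1 per captured transcript) were counted in single cells of the subventricular zone (SVZ), the wall of the lateral ventricle that holds ependymal cells, astrocyte-like stem cells and their dividing and neuronal offspring. The adult mice (5 in all) carried aSMACreERt2::Rosa26-tdTomato, in which a tamoxifen-dependent Cre under the smooth muscle actin promoter switches on tdTomato, together with a Sox2-GFP allele, on a mixed C57/Bl6 and 129S1SvlmJ background. Sorted GFP-positive cells were split by tdTomato: 1200 tdTomato-positive cells gave the tdTomato+ library, and 1200 and 6000 tdTomato-negative cells gave the tdTomato- libraries 1 and 2. Every library thus carried both reporters and the GFP gate, the sort had a gate against debris and doublets, and a dissociated cortex set the tdTomato gates. The sources used here give neither the tamoxifen schedule nor whether the libraries came from separate animals. The p-values therefore reflect the spread between these libraries alone, and that spread may be technical.

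In multiciliated cells, Gmnc (also called GemC1) and Mcidas (multicilin), coiled-coil relatives of the replication inhibitor geminin, bind E2f4 or E2f5 and switch on the genes that build many centrioles. Myb and Trp73 (the p53 relative p73) act in the same cascade. Foxj1, a forkhead factor, and the RFX family, which binds X-box sites, then drive the genes of motile cilia. Ependymal cells acquire their cilia early in postnatal life and mostly no longer divide in the adult, and mouse ependymal cells need Foxj1 to keep their cilia.

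In the GENCODE annotation of GRCm38 all 10 are protein-coding genes. Foxj1 lies at chr11:116330704-116335399 (minus strand), Rfx1 at chr8:84066834-84096992 (plus strand), Rfx2 at chr17:56775897-56831013 (minus strand), Rfx3 at chr19:27761721-28011166 (minus strand) and Rfx4 at chr10:84756062-84906538 (plus strand). Myb lies at chr10:21124935-21160984 (minus strand), Trp73 at chr4:154056253-154140208 (minus strand), E2f4 at chr8:105297663-105305370 (plus strand), Mcidas at chr13:112993845-113000394 (plus strand) and Gmnc at chr16:26913553-26991652 (minus strand).

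The RefSeq promoter windows (GRCm38.p6, 250 bases before to 50 bases after the start) of the members are shown because 5 of the 8 genes with a window hold the X-box half-site GTTGCC on either strand. Of all 27025 genes with such a window, 14.1% hold it, against 48.3% of 29 motile cilium genes (14 genes) and 44% of 25 genes of intraflagellar transport and the BBSome (11 genes). The half-site began at position 1 from the start in Rfx1, 31 in Rfx3, 2 in Trp73, -116 in Rfx2 and -195 in Mcidas. Capitals mark the half-site, the forkhead motif GTAAACA and the MYB motif TAACNG, all searched on both strands. In Rfx2 the MYB motif overlaps the half-site by its last base, and in Myb the capitals mark the forkhead motif, which 4.05% of all genes hold.
Rfx1, chr8:84066586-84066885, plus strand: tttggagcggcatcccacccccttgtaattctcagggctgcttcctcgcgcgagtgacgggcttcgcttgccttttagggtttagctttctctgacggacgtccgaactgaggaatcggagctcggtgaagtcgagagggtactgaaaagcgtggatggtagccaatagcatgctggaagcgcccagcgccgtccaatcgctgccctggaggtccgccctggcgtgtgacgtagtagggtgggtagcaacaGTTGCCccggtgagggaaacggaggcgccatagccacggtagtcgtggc
Rfx2, chr17:56830959-56831258, minus strand: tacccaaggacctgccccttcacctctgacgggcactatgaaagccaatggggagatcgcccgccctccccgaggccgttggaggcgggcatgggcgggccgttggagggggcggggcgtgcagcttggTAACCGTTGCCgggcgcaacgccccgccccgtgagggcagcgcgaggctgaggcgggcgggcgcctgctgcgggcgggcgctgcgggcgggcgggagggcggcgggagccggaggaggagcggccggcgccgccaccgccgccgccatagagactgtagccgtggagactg
Rfx3, chr19:28011117-28011416, minus strand: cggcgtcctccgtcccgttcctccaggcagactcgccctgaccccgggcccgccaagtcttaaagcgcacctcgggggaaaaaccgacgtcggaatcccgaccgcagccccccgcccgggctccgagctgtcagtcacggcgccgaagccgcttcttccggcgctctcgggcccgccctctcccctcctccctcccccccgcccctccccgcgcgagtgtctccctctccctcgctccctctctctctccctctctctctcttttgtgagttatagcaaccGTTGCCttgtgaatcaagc
Trp73, chr4:154139826-154140125, minus strand: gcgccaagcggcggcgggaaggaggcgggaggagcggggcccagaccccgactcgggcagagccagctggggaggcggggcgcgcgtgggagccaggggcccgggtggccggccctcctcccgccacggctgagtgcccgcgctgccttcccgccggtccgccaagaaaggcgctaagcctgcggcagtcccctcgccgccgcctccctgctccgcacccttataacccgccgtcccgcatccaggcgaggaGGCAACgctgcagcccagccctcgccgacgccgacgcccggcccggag
Mcidas, chr13:112993618-112993917, plus strand: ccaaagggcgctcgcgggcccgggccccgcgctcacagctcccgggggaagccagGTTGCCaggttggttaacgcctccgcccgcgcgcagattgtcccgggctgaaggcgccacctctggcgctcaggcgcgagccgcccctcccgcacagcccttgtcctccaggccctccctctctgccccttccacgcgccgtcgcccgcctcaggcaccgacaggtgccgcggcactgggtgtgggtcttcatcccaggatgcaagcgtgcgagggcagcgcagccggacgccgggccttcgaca
Myb, chr10:21160935-21161234, minus strand: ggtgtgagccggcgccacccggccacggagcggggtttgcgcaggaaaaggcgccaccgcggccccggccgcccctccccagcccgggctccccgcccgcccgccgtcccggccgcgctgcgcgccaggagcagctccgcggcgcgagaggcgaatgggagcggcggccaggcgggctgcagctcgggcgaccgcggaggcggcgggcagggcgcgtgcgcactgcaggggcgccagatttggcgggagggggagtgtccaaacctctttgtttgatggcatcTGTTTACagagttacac
The E2F motif TTTNNCGC was in none of the windows of these 8 genes and in 5.93% of all genes. The second window of Trp73 and the windows of Rfx4, Myb and Gmnc held no half-site, while Rfx4 and Gmnc held the MYB motif, as 25.9% of all genes did. These matches are a description of letters in a window. The library counts the 3′ ends of transcripts and cannot tell the starts of Trp73 apart.

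The tdTomato+ library held 314 barcodes, and the tdTomato- libraries 1 and 2 held 259 and 1127. After filtering, 252, 256 and 1121 cells were left, with 720340, 926246 and 3585917 UMIs. The median mitochondrial share was 8.27% in kept cells of the tdTomato+ library, against 3.22% and 3.38% in the tdTomato- ones. At most 2 barcodes were shared between any 2 libraries. Cells were grouped without use of the 10 factors. An ependymal-like class of 235 cells (177 from the tdTomato+ library, 12 and 46 from the tdTomato- libraries 1 and 2) had UMIs of all 14 ependymal markers in every library, summed to between 17663 and 20220 CPM (UMIs of a gene per 1000000 UMIs of the sum). It was compared with 151 dividing cells (0, 28 and 123) and with 278 astrocyte-like cells (16, 43 and 219), a class that can include quiescent neural stem cells. Astrocyte markers summed to between 1746 and 2020 CPM in ependymal-like cells and neuroblast markers to between 1110 and 1357 CPM, and their part in the results was not tested. Median depth was 3620 UMIs in ependymal-like cells, 7222 in dividing and 2352 in astrocyte-like cells.

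Of the 10 factors, 7 had their highest level in ependymal-like cells, with the counts spread very unevenly. Ependymal-like cells made up 14.4% of kept cells and held 15.5% of all UMIs. They held 90.7% of the UMIs of Foxj1 (371 of 409), 90.7% of Trp73 (39 of 43), 91.7% of Gmnc (11 of 12), 88.2% of Rfx2 (45 of 51) and 76.5% of Myb (65 of 85). The shares were 48.0% for Rfx1 (24 of 50), 37.4% for Rfx3 (80 of 214), 32.0% for Rfx4 (49 of 153) and 13.0% for E2f4 (14 of 108). Mcidas had 1 UMI in all. Barcodes that failed the cell filter (71) held 25 further UMIs of Foxj1 and between 0 and 6 of each of the others.

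**Figure D1:**
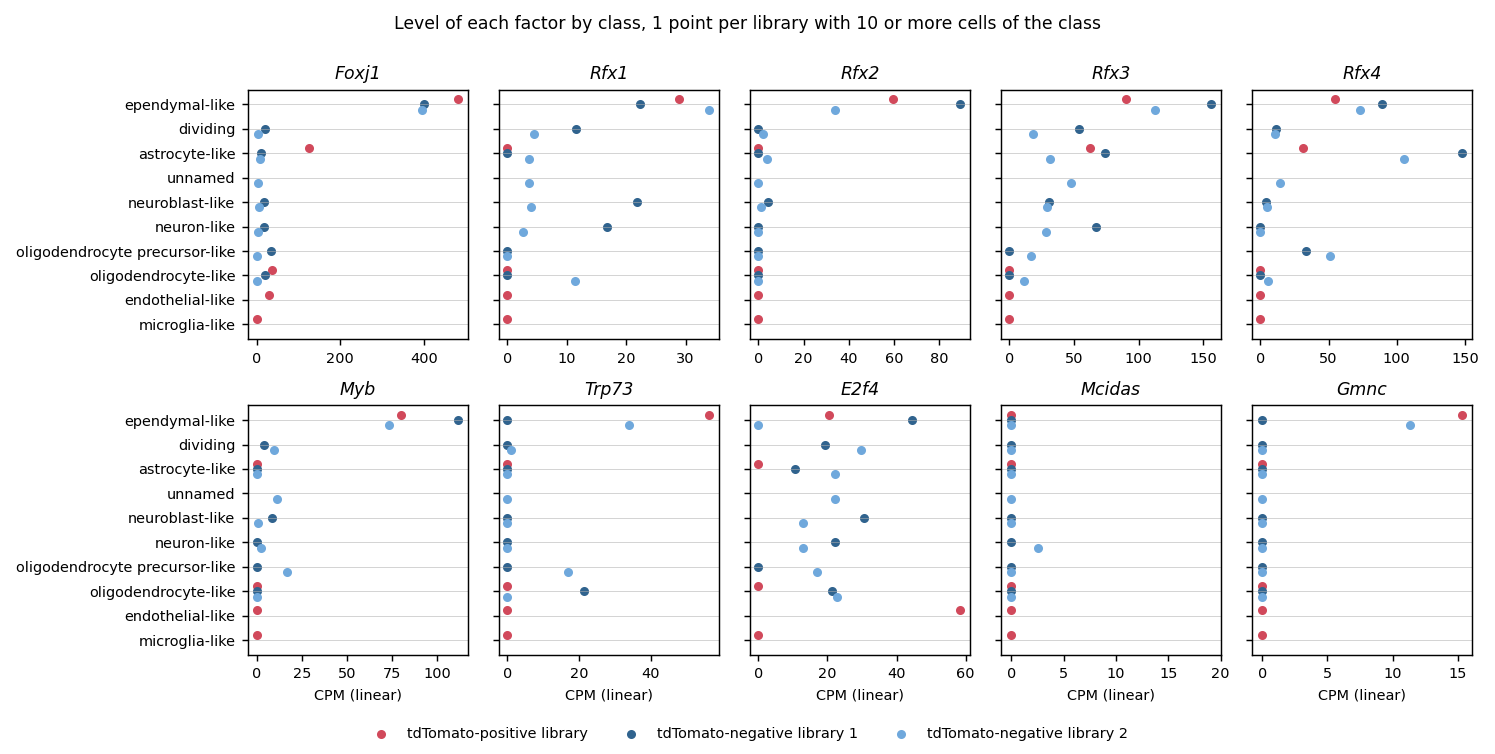
Level of each factor (CPM on a linear axis that differs between panels) by cell class, with 1 point for each library that held 10 or more cells of the class. Foxj1 sits at 395 CPM or more in ependymal-like cells of all 3 libraries, while the Rfx4 points of astrocyte-like cells reach 148 CPM and Mcidas has a single point above 0.

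Foxj1, the forkhead factor of motile ciliogenesis, stood at 481 CPM in ependymal-like cells of the tdTomato+ library and at 400 and 395 CPM in those of the tdTomato- libraries 1 and 2. Dividing cells held 19.3 and 4.39 CPM in the tdTomato- libraries 1 and 2. Astrocyte-like cells held 124 CPM in the tdTomato+ library (4 UMIs in 16 cells) and 10.5 and 7.39 CPM in the tdTomato- libraries. No library with 10 or more cells of another class reached the ependymal-like range. In the astrocyte-like cells of the tdTomato+ library, ependymal markers summed to 1587 CPM, against 464 and 318 CPM in those of the tdTomato- libraries, and their part in the Foxj1 value was not tested.

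Fitted with edgeR's quasi-likelihood test on sums per library and class, with library as a block and p adjusted over all 3137 genes tested, Foxj1 was 4.64 ± 0.40 higher (log2 fold change ± SE) in ependymal-like than in astrocyte-like cells (adjusted p = 8.82e-29). Against dividing cells the log2 difference was 5.58 ± 0.42 (adjusted p = 9.36e-39). Of the 10 factors, 5 had enough counts for these fits (Foxj1, Rfx2, Rfx3, Rfx4 and Myb), and this filter favours genes that are high in at least one class. Foxj1, Rfx2 and Myb passed it mainly through ependymal-like cells, so their calls against the other classes are a description only. For Rfx4, which passed mainly through ependymal-like and astrocyte-like cells, the same holds for calls in comparisons with dividing cells. Against astrocyte-like cells 4 of the 5 were called higher, where 20.8% of all genes tested were called higher, 12.4% lower and 33.1% in either direction. Against dividing cells 5 of 5 were called higher, where 27% of all genes tested were called higher and 46.1% in either direction. Without tdTomato- library 2, which holds most dividing and astrocyte-like cells, only Foxj1 of the 3 factors then tested (Foxj1, Rfx3 and Rfx4) was called in each comparison.

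Among ependymal-like cells, a Foxj1 UMI was found in 127 of 177 in the tdTomato+ library (71.8%), 9 of 12 in tdTomato- library 1 (75.0%) and 33 of 46 in tdTomato- library 2 (71.7%). Among all other kept cells the share was 9.33% (7 of 75 cells), 6.15% (15 of 244) and 1.40% (15 of 1075) in the same libraries. Median depths were 3284, 4069 and 4256 UMIs in the ependymal-like cells and 1334, 2608 and 2362 UMIs in the others. Thinned to 1000 UMIs per cell, 39.6% of 217 ependymal-like cells, 0 of 151 dividing cells and 1.49% of 268 astrocyte-like cells kept a Foxj1 UMI. With 3 counts as the limit that a count of 0 allows, the 0 of 151 allows a share of up to 1.99% of cells with a UMI after thinning, which covers counting error only and is no limit on cells that express the gene.

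**Figure D2:**
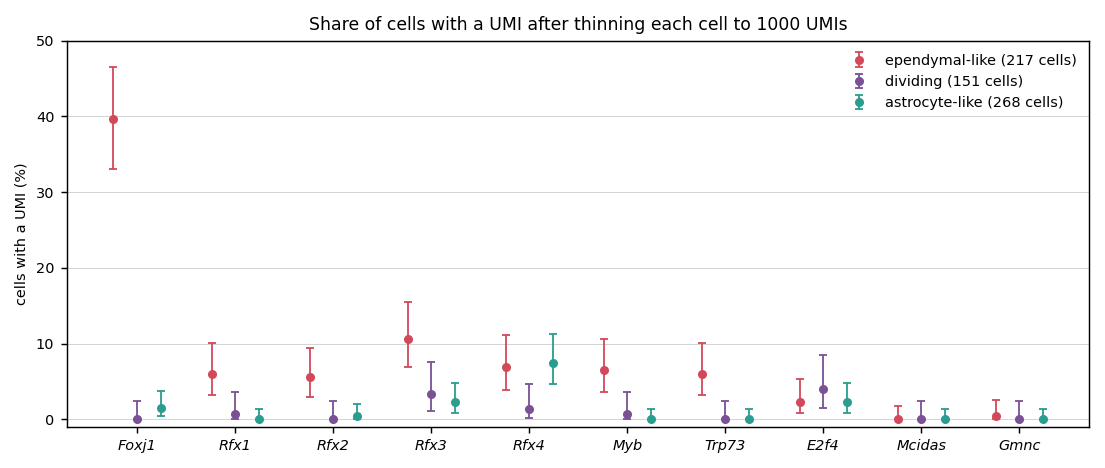
Share of cells (%) with a UMI of each factor after each cell was thinned to 1000 UMIs, in ependymal-like (217), dividing (151) and astrocyte-like (268) cells, with exact Clopper-Pearson 95% intervals. Foxj1 reaches 39.6% of ependymal-like cells, and for Rfx4 the ependymal-like share (6.91%) and the astrocyte-like share (7.46%) have overlapping intervals.

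The RFX family split by class. Rfx2, a factor of cilium genes, had 59.5 CPM in ependymal-like cells of the tdTomato+ library and 89.0 and 33.9 CPM in those of the tdTomato- libraries 1 and 2. Dividing and astrocyte-like cells had 2 UMIs each over all libraries, and the groups did not overlap. The fitted log2 difference was 4.59 ± 1.05 against dividing cells (edgeR adjusted p = 5.93e-05) and 3.76 ± 1.03 against astrocyte-like cells (edgeR adjusted p = 0.00127). Rfx2 passed the filter on low counts through the class where it is high, so these calls are a description only. With so few UMIs in the other classes, the pooled ratios were 32.5-fold against dividing cells (log2 counting interval 3.09 to 8.11) and 18.6-fold against astrocyte-like cells (2.28 to 7.30). Without tdTomato- library 1 the Rfx2 difference from astrocyte-like cells lost its call (3.28, adjusted p = 0.0632).

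Rfx3, an RFX factor needed for motile and primary cilia in mice, was detected in more classes. It had 90.1 CPM in ependymal-like cells of the tdTomato+ library and 156 and 113 CPM in those of the tdTomato- libraries 1 and 2. Dividing cells had 54.0 and 18.6 CPM in the tdTomato- libraries 1 and 2. In astrocyte-like cells it had 62.2, 73.8 and 31.4 CPM in the tdTomato+ library and the tdTomato- libraries 1 and 2. All 3 ependymal-like values lay above those of both other classes.

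Rfx3 was 2.23 ± 0.46 (log2) higher in ependymal-like than in dividing cells (edgeR adjusted p = 7.13e-06) and 1.47 ± 0.45 higher than in astrocyte-like cells (edgeR adjusted p = 0.00471). The second call was lost without tdTomato- library 1 (1.60, adjusted p = 0.199), and both were lost without tdTomato- library 2 (1.41, adjusted p = 0.404, and 0.84, adjusted p = 0.639). Below ependymal-like cells, the pooled Rfx3 levels ran from 44.5 CPM in the unnamed cluster through 40.3 in neuron-like, 38.9 in astrocyte-like and 29.2 in neuroblast-like to 26.5 in dividing cells. The counting intervals of these 5 classes overlapped.

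Rfx4, a factor of brain development known for midline and ciliary signalling in the mouse, was the exception. It had 54.4 CPM in ependymal-like cells of the tdTomato+ library and 89.0 and 73.4 CPM in those of the tdTomato- libraries 1 and 2. Dividing cells had 11.6 and 11.0 CPM in the tdTomato- libraries 1 and 2. Astrocyte-like cells had 31.1 CPM in the tdTomato+ library (1 UMI) and 148 and 105 CPM in the tdTomato- libraries. Ependymal-like and astrocyte-like values overlapped, and dividing cells lay below both.

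The log2 difference of Rfx4 between ependymal-like and astrocyte-like cells was -0.41 ± 0.46 and was not called (edgeR adjusted p = 0.551). It was 3.01 ± 0.60 higher in ependymal-like than in dividing cells (edgeR adjusted p = 2.76e-06). In dividing cells Rfx4 was 3.41 ± 0.49 lower than in astrocyte-like cells (edgeR adjusted p = 3.42e-11). Rfx4 passed the filter on low counts mainly through ependymal-like and astrocyte-like cells. Its calls in comparisons with dividing cells are thus a description only. Both of these calls were lost without tdTomato- library 2, at 3.22 (adjusted p = 0.134) and -3.44 (adjusted p = 0.0683). Between dividing and astrocyte-like cells 2 of the 5 factors tested were called, Rfx4 lower and Myb higher, where 23.4% of all genes tested were called lower, 25.5% higher and 49% in either direction.

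Within the astrocyte-like class, the Rfx4 counting intervals of the 2 clusters lay apart in tdTomato- library 2 only. In the cluster led by Slc7a10, Htra1 and Ntm it had 174 and 135 CPM in the tdTomato- libraries 1 and 2 (12 and 51 UMIs). In the cluster led by Gfap, Id3 and Thbs4 it had 77.1 and 36.8 CPM in the same libraries (2 and 6 UMIs). The 2 UMIs were in 1 cell, and the counting intervals overlapped in tdTomato- library 1. The tdTomato+ library held 1 UMI in 13 cells of the first cluster and 0 in 3 cells of the second, which gives no direction. Oligodendrocyte precursor-like cells ranked next after ependymal-like cells (33.7 and 51.0 CPM in the tdTomato- libraries 1 and 2), and neuron-like cells had no Rfx4 UMI.

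Rfx1, a broadly expressed RFX factor, was too sparse for the class fits. It had 28.9, 22.2 and 33.9 CPM in ependymal-like cells of the tdTomato+ library and the tdTomato- libraries 1 and 2. Dividing cells had 11.6 and 4.39 CPM in the tdTomato- libraries 1 and 2, and astrocyte-like cells had 2 UMIs in all. Pooled levels were 4.96-fold higher in ependymal-like than in dividing cells (log2 counting interval 1.05 to 3.77). The pooled ratio to astrocyte-like cells was 9.90 (log2 counting interval 1.30 to 6.43).

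Myb, a factor of the cell cycle and of multiciliogenesis, was higher in ependymal-like than in dividing cells. It had 79.9 CPM in ependymal-like cells of the tdTomato+ library and 111 and 73.4 CPM in those of the tdTomato- libraries 1 and 2. Dividing cells had 3.85 and 9.87 CPM in the tdTomato- libraries 1 and 2, and the 278 astrocyte-like cells had no UMI. The groups did not overlap. Dividing markers summed to 175, 623 and 503 CPM in ependymal-like cells of the 3 libraries in the same order, against 14073 and 13541 CPM in dividing cells.

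Myb was 3.35 ± 0.72 (log2) higher in ependymal-like than in dividing cells (edgeR adjusted p = 1.69e-05). Against astrocyte-like cells it was called higher (edgeR adjusted p = 3.63e-08). With 3 counts over the astrocyte-like cells as a floor the level was 17.9-fold higher, leaving out the counting error of the ependymal-like UMIs. Between dividing and astrocyte-like cells the call (edgeR adjusted p = 0.0324) corresponded to a level 1.90-fold higher in dividing cells with the same floor. That ratio rests on 10 UMIs and leaves out their counting error. That call was lost with DESeq2 (adjusted p = 0.225) and under 5 other settings. The relative Mybl2 (B-Myb), a cell cycle factor not among the 10, had 9 UMIs in ependymal-like and 37 in dividing cells, a pooled ratio of 0.352.

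Trp73, whose loss in mice impairs ependymal multiciliation, had 56.1, 0 and 33.9 CPM in ependymal-like cells of the tdTomato+ library and the tdTomato- libraries 1 and 2. The library with 0 held 12 ependymal-like cells. Dividing cells had 1 UMI and astrocyte-like cells none, so Trp73 did not enter the class fits. With 3 counts as a floor in astrocyte-like cells, pooled levels were 10.7-fold higher than there, leaving out the counting error of the ependymal-like UMIs. The ratio to dividing cells was 56.4 (log2 counting interval 3.25 to 11.2). Within the ependymal-like class, Trp73 had 57.0 CPM in the 169 cells with a Foxj1 UMI and 12.4 CPM (2 UMIs) in the 66 cells without one. Not all other factors shared this direction. Rfx3 had 90.9 CPM in cells with a Foxj1 UMI and 130 CPM in those without. Rfx4 had 55.5 and 80.5 CPM, Rfx2 had 54.0 and 61.9 CPM, and E2f4 had 17.0 and 18.6 CPM in the same order. Myb (81.7 and 74.3 CPM), Rfx1 (32.4 and 18.6 CPM) and Gmnc (13.9 and 12.4 CPM) were higher in the cells with a Foxj1 UMI, the last 2 on 3 and 2 UMIs in the cells without one. Median depth was 4070 UMIs in cells with a Foxj1 UMI and 1797 in those without, and the part of depth in this was not tested.

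**Figure D3:**
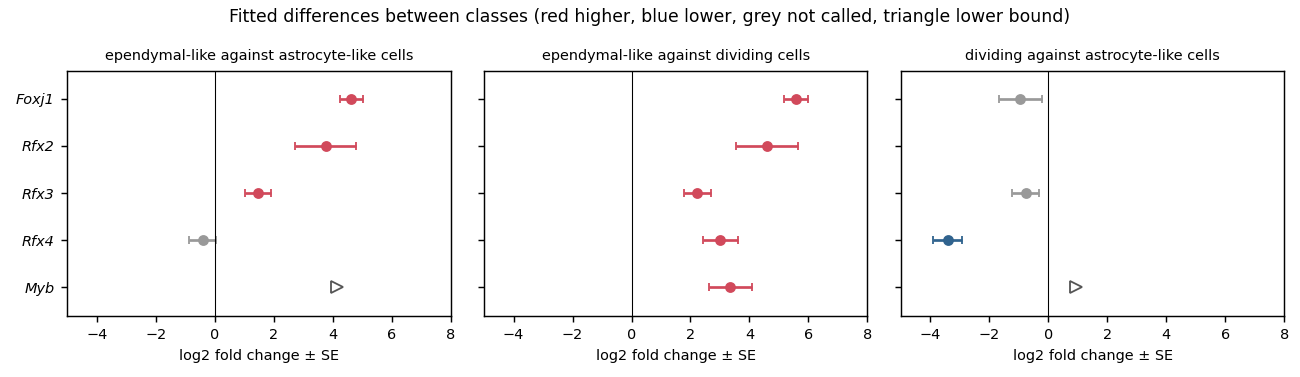
Log2 fold changes (± SE) of the 5 factors that entered the class fits, in 3 comparisons, with red for higher, blue for lower and grey for not called. Open triangles give the lower bound for Myb, which had no UMI in astrocyte-like cells, and no point is drawn for Rfx2 between dividing and astrocyte-like cells, which had 2 UMIs each. Only Rfx4 of the 5 is not called higher in ependymal-like than in astrocyte-like cells.

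The upstream co-regulators were at or near the detection limit. Gmnc had 9 UMIs in the 177 ependymal-like cells of the tdTomato+ library, 0 in the 12 of tdTomato- library 1 and 2 in the 46 of tdTomato- library 2. Those were 10 cells, of which 8 also held a Foxj1 UMI. The 12th UMI was in a cell of the unnamed cluster with 557 UMIs and 23.5% mitochondrial counts. Dividing cells and astrocyte-like cells had none. With 3 counts as a floor in these classes, pooled levels in ependymal-like cells were 5.30-fold and 3.03-fold higher. These values leave out the counting error of the few ependymal-like UMIs.

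Mcidas had no UMI in 235 ependymal-like cells, which allows a pooled level of up to 3.70 CPM. Its single UMI was in a neuron-like cell of tdTomato- library 2. Its neighbours on chromosome 13, Ccno and Cdc20b, which act in centriole amplification, had 4 and 0 UMIs in ependymal-like cells and none in dividing or astrocyte-like cells. At this depth low transcription of these genes could not be told from none.

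E2f4, which partners Gmnc and Mcidas but is used widely in cell cycle control, had the flattest pattern. It had 20.4, 44.5 and 0 CPM in ependymal-like cells of the tdTomato+ library and the tdTomato- libraries 1 and 2. Dividing cells had 19.3 and 29.6 CPM in the tdTomato- libraries 1 and 2. Astrocyte-like cells had 0, 10.5 and 22.2 CPM in the 3 libraries in the same order. The classes overlapped, and the pooled log2 ratio of ependymal-like to dividing cells was -0.66 (counting interval -1.68 to 0.29). Its relative E2f5, also a partner of Gmnc and Mcidas, had 7 UMIs in ependymal-like, 34 in dividing and 30 in astrocyte-like cells.

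Ependymal-like cells often held UMIs of 2 or more of these factors. A UMI of Foxj1, with or without other factors, was found in 71.9% of them. Whether factors met in 1 cell more often than their single shares give was not tested. At least 2 of the 10 had a UMI in 63.0% of 235 ependymal-like cells, 14.6% of 151 dividing cells and 5.76% of 278 astrocyte-like cells. After thinning to 1000 UMIs the shares were 20.7% of 217 cells, 0 of 151 and 0.373% of 268. The highest number in 1 cell was 6 in ependymal-like, 4 in dividing and 2 in astrocyte-like cells.

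When ependymal-like cells were split at their median of 3620 UMIs, Foxj1 had 452 CPM in the deeper cells and 472 CPM in the shallower ones. Myb had 96.0 CPM in the deeper cells (55 UMIs) and 42.1 CPM in the shallower ones (10 UMIs), a log2 ratio of 1.19 with a counting interval of 0.20 to 2.33. The Myb log2 ratio was 1.49 in the tdTomato+ library and 1.56 in tdTomato- library 2, and -1.46 in tdTomato- library 1 on 3 and 2 UMIs. The counting intervals of the other factors with UMIs in both depth groups included 0.

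Genes linked to these factors were described with 5 lists, which hold cilium and centriole genes as well as partners and relatives of the factors. Of 34 motile cilium genes (dynein arms, radial spokes and other axonemal parts), 31 entered the class fits, and 31 of 31 were called higher in ependymal-like than in dividing cells (27% of all genes tested) and than in astrocyte-like cells (20.8%). Most of them had few UMIs outside ependymal-like cells, so that the filter on low counts passed them through the class where they are high, and the count is a description only. The median log2 difference was 6.42 against dividing and 5.21 against astrocyte-like cells, with genes at 0 UMIs set to their bound, where all genes tested had medians of 0.03 and 0.12. Dnaic2, a dynein arm chain, had 109 UMIs in ependymal-like, 7 in dividing and 0 in astrocyte-like cells. Dnali1, an inner arm light chain, had 246, 1 and 9 UMIs in the same classes.

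Of 29 genes of intraflagellar transport and the BBSome, which carry cargo along cilia, 17 were tested. Against dividing cells 14 of the 17 were called higher (27% of all genes tested) and none lower, with a median log2 difference of 2.12, and against astrocyte-like cells 16 were called higher (20.8% of all genes tested) and none lower, with a median of 2.23. Ift88 was 3.03 ± 0.61 (log2) higher in ependymal-like than in dividing cells (edgeR adjusted p = 3.01e-06). Against astrocyte-like cells the difference was 3.58 ± 0.67 (edgeR adjusted p = 9.95e-07). Ift88 had 99 UMIs in ependymal-like, 14 in dividing and 5 in astrocyte-like cells. The filter on low counts favours such genes, so these counts and calls are a description only.

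The 8 tested genes of centriole amplification, of 20 listed, moved in both directions. Against dividing cells 4 were higher and 2 lower, where 27% and 19.1% of all genes tested were, with a median log2 difference of 0.34, and against astrocyte-like cells 6 were higher and none lower, where 20.8% and 12.4% of all genes tested were, with a median of 1.72. The centrins Cetn4 and Cetn2 and the deuterosome-associated gene Ccdc78 led the rise. Cetn4 had 341 UMIs in ependymal-like, 15 in dividing and 6 in astrocyte-like cells. Ccdc78 had 110, 11 and 5 UMIs in the same classes. The filter on low counts favours genes that are high in at least one class, so the counts of called genes are a description only. Ccdc67 (Deup1), the deuterosome scaffold, was too sparse for the fits, with 28 UMIs in ependymal-like cells and 1 in each of the other classes. Many other listed genes too sparse for the fits had lower pooled levels in ependymal-like than in dividing cells. Stil had 0 and 37 UMIs, Sass6 3 and 36, Cntrob 6 and 44, and Cenpj 4 and 34, in that order. Cep192, Cep135, Cep152 and Poc5 shared this direction, while Cep63 and Ccno were higher in ependymal-like cells, as Ccdc67 was.

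Plk4, the kinase that starts centriole duplication, was tested and was also lower in ependymal-like than in dividing cells. It had 2 UMIs in ependymal-like, 98 in dividing and 5 in astrocyte-like cells. Its fitted log2 difference between ependymal-like and dividing cells was -3.66 ± 0.92 (edgeR adjusted p = 0.000261). Most of these Plk4 UMIs were in dividing cells, and the filter on low counts favours such genes, so this call is a description only. The geminin gene Gmnn, relative of Gmnc and Mcidas, had 1 UMI in ependymal-like, 198 in dividing and 6 in astrocyte-like cells. The pooled log2 ratio of Gmnn between ependymal-like and dividing cells was -7.10 (counting interval -12.4 to -4.60).

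Of 12 E2F4, DREAM complex and geminin partners, 4 were tested. Against dividing cells 3 were lower (Gmnn, Rbbp4 and Tfdp2), with a median log2 difference of -1.26, and against astrocyte-like cells none was called, with a median of -0.66. Of 19 relatives of the 10 factors, 3 were tested. All 3 were lower than in dividing cells (Trp53, E2f1 and Rfx7), with a median of -2.36, and none was called against astrocyte-like cells, with a median of -0.54. These counts stand beside the 19.1% of all genes that were lower against dividing cells. Of the 3 classes, only dividing cells held many UMIs of Gmnn and E2f1. The filter on low counts favours such genes, so the counts are a description only.

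**Figure D4:**
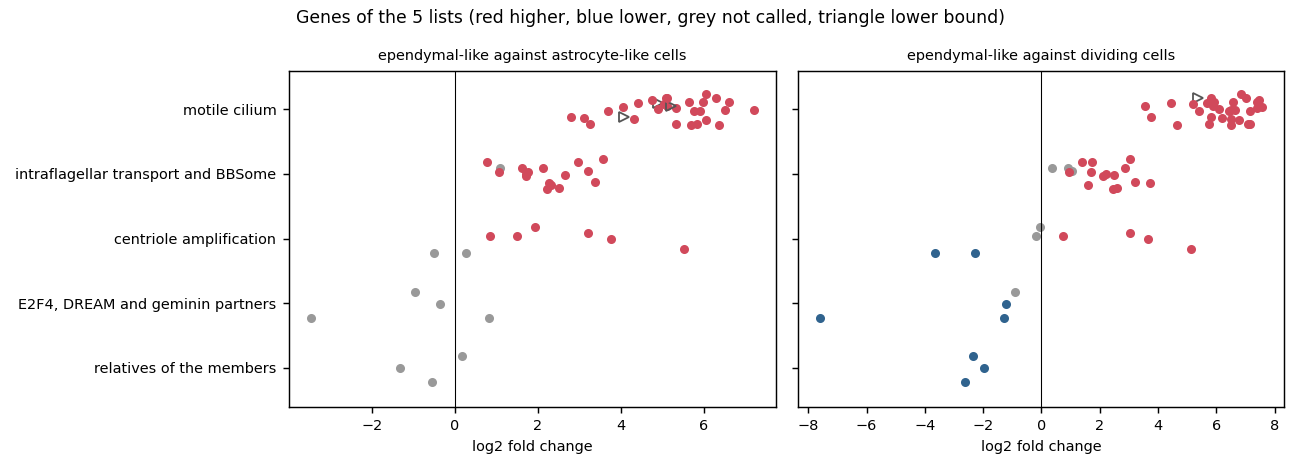
Log2 fold changes of the tested genes of 5 lists in ependymal-like against astrocyte-like cells (left) and against dividing cells (right), 1 point per gene, with red for higher, blue for lower and grey for not called. Open triangles are lower bounds for genes with no UMI in the class compared. All 31 motile cilium genes lie above 0 in both panels, while the centriole amplification genes lie on both sides of 0 against dividing cells.

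Over all cells 6 of the factors were higher in the tdTomato+ library, and within ependymal-like cells none was called; the difference between these 2 fits was not tested. The share of ependymal-like cells was 70.2% in the tdTomato+ library, against 4.69% and 4.10% in the tdTomato- libraries 1 and 2. Over all kept cells, Trp73 had 45.8 CPM in the tdTomato+ library, against 1.08 and 2.51 CPM in the tdTomato- libraries. Rfx2 had 48.6 CPM in the tdTomato+ library, against 5.40 and 3.07 CPM in the tdTomato- libraries. Myb had 65.2 CPM in the tdTomato+ library, against 9.72 and 8.09 CPM in the tdTomato- libraries. These values did not overlap between the gates.

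Of the 10 factors, 8 entered the fit over all cells, and 6 were called higher in the tdTomato+ library, where 22.9% of all 10944 genes tested were called higher and 41.8% in either direction. The log2 differences were 4.38 ± 0.63 for Trp73 (edgeR adjusted p = 4.30e-11), 3.73 ± 0.55 for Rfx2 (2.25e-10) and 2.95 ± 0.42 for Myb (3.14e-11). Rfx1 (1.56 ± 0.61, adjusted p = 0.0276) and Rfx3 (1.02 ± 0.35, adjusted p = 0.0103) were called by edgeR and lost their calls with DESeq2 (adjusted p = 0.458 and 0.317). Rfx4 (0.82 ± 0.39, adjusted p = 0.0790) and E2f4 (-0.13 ± 0.49, adjusted p = 0.850) were not called. The fit has 1 library against 2 and 1 residual degree of freedom, and the share of ependymal-like cells moves with the gate. Trp73, Rfx2 and Myb passed the filter on low counts through the tdTomato+ library, where they are high. Their calls are thus a description only.

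Within ependymal-like cells 6 of the factors entered the fit and none was called, where 0.241% of 2079 genes tested were called higher, 0.0962% lower and 0.337% in either direction. edgeR gave 80 genes with an unadjusted p under 0.05, and DESeq2 gave 2 such genes and 0 after adjustment. The adjusted p was 0.999 for each of the 6. Foxj1 differed by 0.37 ± 0.29 (log2) between the gates, Myb by 0.03 ± 0.53, Rfx3 by -0.37 ± 0.46 and Rfx4 by -0.42 ± 0.54. Trp73 differed by 1.17 ± 0.95 on 33 UMIs in the tdTomato+ library and 6 in the tdTomato- ones. These values do not show that the gates are alike: the counting interval of the Trp73 log2 ratio ran from -0.22 to 2.60.

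**Figure D5:**
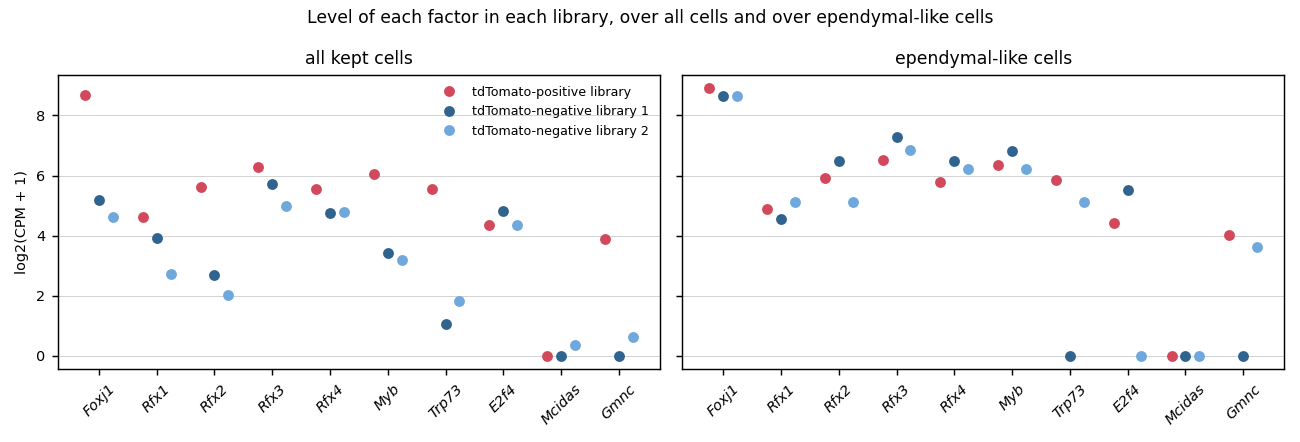
Level of each factor, as log2(CPM + 1), in the tdTomato+ library and the tdTomato- libraries 1 and 2, over all kept cells (left) and over ependymal-like cells (right). Over all cells Trp73 stands at 45.8 CPM in the tdTomato+ library, against 1.08 and 2.51 CPM in the tdTomato- libraries 1 and 2. Foxj1 over all cells stands at 404 CPM, against 35.6 and 23.7 CPM in the same order. Over ependymal-like cells Trp73 stands at 56.1 CPM, against 0 and 33.9 CPM in the same order. Foxj1 over ependymal-like cells lies between 395 and 481 CPM in all 3 libraries.

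In the tdTomato- libraries alone, ependymal-like cells were set against all other cells. The ratio for Foxj1 was 23.5 in tdTomato- library 1 (18 and 15 UMIs; log2 counting interval 3.48 to 5.65) and 89.9 in tdTomato- library 2 (70 and 15 UMIs; 5.67 to 7.40), so it was above 1 in both and differed in size. Rfx2 had ratios of 78.4 in library 1 (4 and 1 UMIs; 2.96 to 11.9) and 23.1 in library 2 (6 and 5 UMIs; 2.55 to 6.58). Myb had ratios of 24.5 (5 and 4 UMIs; 2.40 to 6.95) and 15.6 (13 and 16 UMIs; 2.79 to 5.12), and Rfx3 had 3.35 (0.34 to 2.91) and 4.23 (1.30 to 2.79). The intervals of these 4 factors excluded a log2 ratio of 0 in both libraries.

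For the other factors the interval excluded 0 in library 2 at most. Rfx4 had ratios of 3.92 in library 1 (log2 counting interval -0.04 to 3.55) and 3.02 in library 2 (0.62 to 2.45). Rfx1 had 1.63 in library 1 on 1 UMI in ependymal-like cells (-4.71 to 3.46) and 8.25 in library 2 (1.38 to 4.51). Trp73 had no UMI in ependymal-like cells of library 1, and its ratio in library 2 was 38.5 (6 and 3 UMIs; 3.04 to 7.89). E2f4 had 2 and 0 UMIs in ependymal-like cells of libraries 1 and 2, against 23 and 69 in all others.

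Across 20 sums of library and class (10 classes), the genes most like Foxj1, Rfx3 and Rfx4 were listed among 2037 genes not used for clustering, as a description. Foxj1 was most like Ascc1 (Pearson r = 0.92), Gm867 (0.90) and Nme5 (0.89). Rfx4 was most like Arhgef26 (0.88), Pla2g7 (0.86) and Clu (0.85). Rfx3 was most like Fbln1 (0.87), Id4 (0.84) and Cox6b1 (0.84). The sums share libraries, and sparse sums have low precision.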

How the data were processed

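The authors deposited raw UMI counts per gene and barcode as 1 matrix for each of 3 libraries made with 10x Single Cell 3′ v2 chemistry, per the labels. Per the submitters' processing notes, the tools were Cell Ranger, STAR and Seurat (1.4.0.15), and the builds were mm10 and GRCm38.p5. How barcodes were called cells and whether counting used strand is not given in the sources used here. Antisense genes overlap Rfx1, Rfx3, Myb and Trp73, and it is not known here whether their reads were counted apart.

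Everything else was computed from the deposited counts. The 10 genes and the 5 gene lists (114 genes) were chosen with earlier results of these data known. A barcode was kept (1629 of 1700) if it had 300 or more genes with a UMI and a mitochondrial share of no more than 25%. Cells were clustered together without integration on log-transformed counts scaled to 10000 per cell (pseudocount 1, 1000 variable genes, 20 principal components, 15 neighbours, Leiden resolution 1; scanpy 1.11.5). Clustering used genes with an even last digit of the Ensembl number plus 129 cell type markers, without the 10 genes and the lists. Tests used the odd-digit genes plus the 10 genes and the lists, without the markers. Because genes vary together, tests and clustering are still not independent. Clusters were named from 13 marker lists. Doublets were left in. As an alternative, Scrublet called 9, 2 and 3 cells in the tdTomato+ library and the tdTomato- libraries 1 and 2. It marked 0.268% of tdTomato- library 2, so doublets there are little tested.

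Counts were summed per library and class (at least 10 cells; 17 sums of 7 classes, 8 residual degrees of freedom, library as a block) or per library, and tested with edgeR 4.0.16 (TMM, filterByExpr, quasi-likelihood, Benjamini-Hochberg at 0.05; R 4.3.3). The gate comparisons assume that the single tdTomato+ library varies as the tdTomato- ones do. Standard errors are approximate, from the log2 fold change and the F statistic. The fits were tested on simulated data. A class with 0 UMIs was given a floor of 3 counts over the class. Ratios and bounds from this floor leave out the counting error of the other class. Intervals of shares (exact Clopper-Pearson) and of pooled ratios (exact conditional) are at 95% and cover counting error only. Named genes were all 10 factors and, of each list and comparison, the called genes with the largest changes (3 in each direction). Genes with few UMIs, such as Ccno, Cdc20b, Ccdc67, Mybl2 and E2f5, were named after their values were seen. Alternatives were DESeq2 1.42.0, other scaling, filters, clusterings, doublet removal, no library block and leaving out each library. Promoters are those of RefSeq (GRCm38.p6); the windows of Foxj1 and E2f4 were not used here. The most similar genes of E2f4 and the leading genes of the unnamed cluster are not reported here.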

Additional observations from a re-analysis of the deposited data

How the results depend on the processing

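Of 281 values of the 10 factors under alternative settings, 259 kept their direction and their side of the threshold, 17 kept their direction and lost the call, and 5 moved otherwise; none of the called values reversed. Leaving out 1 library at a time gave 280 to 1487 genes and 0 to 1 factors called between dividing and astrocyte-like cells (1536 and 2 with all libraries). It gave 284 to 877 genes and 1 to 3 factors between ependymal-like and astrocyte-like cells (1039 and 4), and 315 to 1318 genes and 1 to 6 factors between ependymal-like and dividing cells (1446 and 5). The lowest count came each time without tdTomato- library 2, and fewer sums then remain, with a lone sum assumed to vary like the others. Between dividing and astrocyte-like cells 999 genes were called at Leiden resolution 0.5, and 1 factor was called there, with DESeq2, with odd-digit clustering genes and with the stricter cell filter. The gate comparison over all cells called 1908 genes with DESeq2, against 4577 with edgeR. Within ependymal-like cells it called 0 genes with DESeq2, 4 without a filter on low counts and 2 with odd-digit clustering genes, against 7. With 1 library left out, the gate comparisons are 1 against 1 and have no test. The share of ependymal-like cells with a Foxj1 UMI was 79.2% with the stricter cell filter, against 71.9%, and 20.9% when thinned to 500 UMIs, against 39.6% at 1000. The causes were not tested. The comparisons of classes were fitted within libraries, with library as a block, and leaving out that block changed none of the counts of genes or factors called by more than 1.5 times. No paired analysis was possible for the gate comparisons because the tdTomato+ and tdTomato- groups share fewer than 2 replicate numbers. Depth limits Mcidas, Gmnc, Trp73, Rfx1 and E2f4, which did not enter the class fits, and leaves Rfx2 and Myb, with 51 and 85 UMIs in all kept cells, of low precision.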

Other observations

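Trp63, the other close relative of Trp73 and Trp53, is known for epithelial stem cells. It was too sparse for the class fits. It had 18 UMIs in ependymal-like cells, 0 in dividing and 1 in astrocyte-like cells. Pooled levels were at least 8.68-fold higher in ependymal-like than in dividing cells, and the ratio to astrocyte-like cells was 14.9 (log2 counting interval 1.23 to 9.27). Trp53 ran the other way, with 21 UMIs in ependymal-like, 178 in dividing and 22 in astrocyte-like cells. Trp63 was chosen after its values were seen, and reads of Trp63 and Trp73 were taken as the authors assigned them.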
